A study of Mus musculus with 8 samples.

Results

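Transcripts of 9 cytokine and chemokine genes were examined in CD4+ T cells of a SAS and an ANT T cell receptor (TCR) clone: Il2, Il4, Il10, Il21, Ifng, Xcl1, Ccl3, Ccl4 and Ccl5. They are 9 of the 39056 gene rows of the deposited count table, and all had a row. The 9 were chosen by name, with earlier results of these data known, so the set is no independent evidence. The 4 SAS libraries (replicates 1, 2, 3 and 6) came from C57BL/6J mice inoculated with bone marrow that a retrovirus had made to carry the SAS TCRα chain. The 4 ANT libraries (replicates 1, 3, 4 and 5) came from mice given bone marrow with the ANT TCRα chain. The marrow of both clones had the genotype CD4-Cre TCRβtg Tcra-/-, so both had a transgenic TCRβ chain and lacked the endogenous TCRα chain. The clones differ, by design, in the TCRα chain, and each stands for a single receptor. The allele that the Cre acts on, the age and sex of the mice and the marking of transduced cells are not given in the sources used here. Per the labels, CD4+ T cells were sorted by flow cytometry from spleen and lymph nodes that had been combined, straight into lysis reagent, and no stimulation in culture is named. The series title describes self-reactive CD4+ clones that look like T follicular helper (Tfh) cells at steady state. The comparison addresses for which secreted products such cells hold mRNA at rest.

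Cytokines are the secreted messengers through which helper T cells act. IL-2 drives T cell division and regulatory T cell survival, IL-21 is the product by which Tfh cells help B cells, IFN-γ activates macrophages and marks type 1 helper cells, IL-4 marks type 2 helper cells, and IL-10 restrains inflammation. The chemokine XCL1 attracts cross-presenting dendritic cells, and CCL3, CCL4 and CCL5 attract other leukocytes. Resting naive T cells hold little mRNA of any of them. Receptor signals switch the genes on through calcium-dependent NFAT factors, and AU-rich stretches in the 3′ untranslated regions (UTRs) make many of the mRNAs short-lived.

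Libraries held 27600959 to 31810799 counts. A gene with no count in a library of this depth could still stand at up to 0.0914 to 0.110 CPM (counts per 1000000 counts of the scaled library size), the level that 3 counts in that library give. CD4 T cell markers were abundant in both clones, with Cd4 at 907 ± 66.6 CPM in SAS, against 936 ± 59.8 CPM in ANT (SD, n = 4 each). Of 12 such markers, 8 did not pass the edgeR test between the clones, where 37.4% of all genes tested were called. Cd5 and Cd28 were higher in SAS (log2 fold changes 1.67 and 0.74). Trac and Trbc1 were lower in SAS (log2 fold changes −0.65 and −0.32). The Trbc1 call was lost when any 1 library other than ANT replicate 5 was left out (edgeR adjusted p 0.0601 to 0.125). Nothing in the labels says that the samples of a clone came from separate mice, and p-values therefore speak only of the variation among these 8 libraries. SAS replicate 2 stood apart from the other SAS libraries in markers of other cells: its plasma cell markers summed to 15.1 CPM, where SAS replicates 1, 3 and 6 had 3.82 to 5.51 CPM, and its macrophage and monocyte markers to 11.1 CPM, where they had 5.31 to 6.76 CPM. ANT libraries fell in pairs by the share of mitochondrial counts, which was 2.54% and 2.44% in ANT replicates 1 and 3, and 1.62% and 1.54% in ANT replicates 4 and 5.

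Across the 9 genes, transcripts were scarce in both clones and were found mostly in SAS. Every SAS library exceeded every ANT library for 7 of the 9 genes, all but Il4 and Il10. That background was 14.2%: of the 22194 genes with at least 1 count, 3147 had every SAS library above every ANT library. Among the 12619 genes past the low-count filter it was 20.5% (2581 genes). The low-count filter of the test was passed by 5 of the 9, namely Il21, Ifng, Xcl1, Ccl4 and Ccl5, and edgeR called all 5 higher in SAS at an adjusted p under 0.05. Among all 12619 genes tested, 37.4% were called, with 19.8% higher in SAS and 17.7% lower. The 5 passed the filter through their SAS libraries alone, so their count is a description and says nothing of the 4 that did not pass. The RNA came from sorted populations, in which more cells that transcribe a gene and more RNA per cell cannot be told apart.

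**Figure D1:**
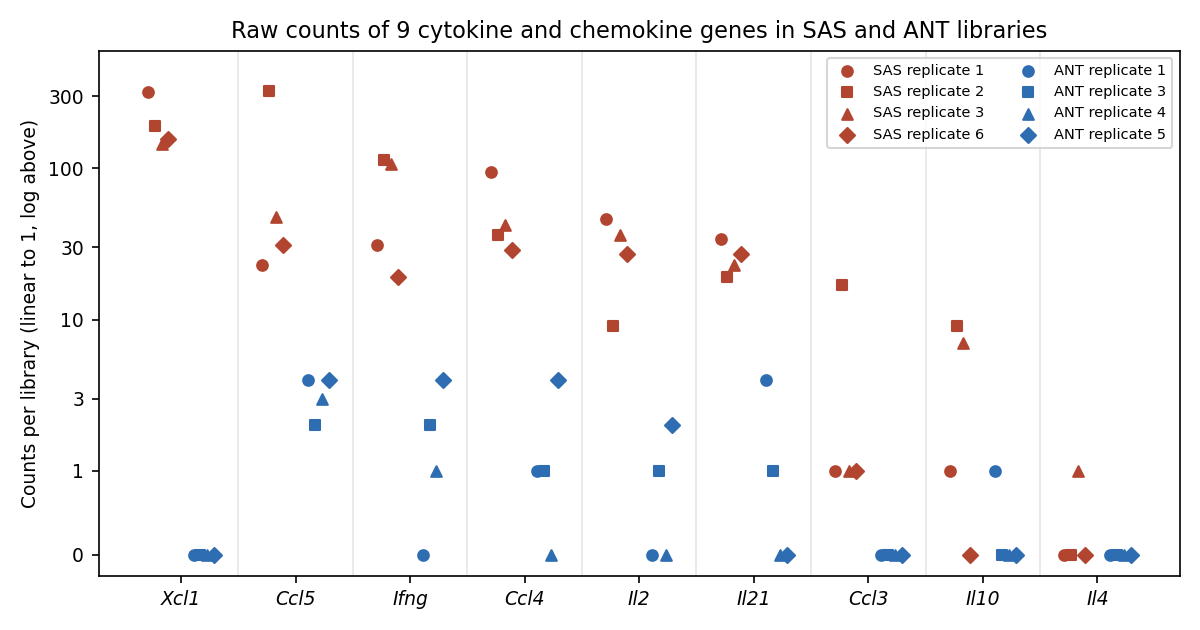
Raw counts of the 9 genes in each of the 8 libraries (vertical axis linear to 1 and logarithmic above, red SAS libraries left of blue ANT libraries for each gene, 1 symbol per replicate). ANT libraries hold between 0 and 4 counts of every gene, while SAS libraries reach 320 counts of Xcl1 and 324 of Ccl5.

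Il2 and Il21 lie 96.8 kb apart on chromosome 3, and transcripts of both were found mainly in SAS. Il2 (ENSMUSG00000027720.7, chr3:37120523-37125959, minus strand, GRCm38) had 46, 9, 36 and 27 counts in SAS replicates 1, 2, 3 and 6, against 0, 1, 0 and 2 counts in ANT replicates 1, 3, 4 and 5. The lowest SAS library, replicate 2, still held more Il2 counts than the highest ANT library. In CPM, Il2 averaged 0.957 ± 0.482 in SAS and 0.0264 ± 0.0332 in ANT (SD, n = 4 each), and the exact two-sided permutation test gave p = 0.0286, the smallest that 4 libraries against 4 can give. The pooled counts were 118 (95% Poisson interval 97.7 to 141) in SAS and 3 (0.619 to 8.77) in ANT, a ratio of 36.6 with a 95% conditional binomial interval of 12.2 to 180. These intervals, and those given for the other genes, cover counting error only. Il2 missed the low-count filter because the 9 counts of SAS replicate 2 fell just short of the 9.44 counts that the filter asks of that library. Without the filter, edgeR called it higher in SAS (log2 fold change 4.94 with an SE of 0.80, adjusted p 0.000546), as it did 11.3% of the 22194 genes then tested; leaving out ANT replicate 5 as well gave 5.87.

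Il21 (ENSMUSG00000027718.8, chr3:37222759-37232636, minus strand) had the evenest counts of the 9 genes among SAS libraries. It had 34, 19, 23 and 27 counts in SAS replicates 1, 2, 3 and 6, against 4, 1, 0 and 0 counts in ANT replicates 1, 3, 4 and 5. SAS libraries differed by 1.55-fold between the lowest and the highest in CPM, and no ANT library came near them. Means were 0.841 ± 0.154 CPM in SAS, against 0.0437 ± 0.0652 CPM in ANT, and the log2 fold change by edgeR was 4.13 (SE 0.65, adjusted p 0.000653). The ratio of pooled counts, 103 in SAS to 5 in ANT, was 19.2 (95% counting interval 7.95 to 60.2). Most of the ANT counts came from ANT replicate 1, and without it the log2 fold change was 5.70; without ANT replicates 4 and 5 it was 3.17 and without ANT replicates 1 and 3 it was 7.65.

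The promoters of these genes are printed because both genes were higher in SAS and are classical NFAT targets. The 250 bases before the RefSeq start (GRCm38.p6, 5′ to 3′ on the gene's strand) are shown, with the NFAT core GGAAA, or TTTCC on the other strand, in capitals. The Il2 window is chr3:37125955-37126204 and the Il21 window chr3:37232637-37232886, both on the minus strand.
Il2: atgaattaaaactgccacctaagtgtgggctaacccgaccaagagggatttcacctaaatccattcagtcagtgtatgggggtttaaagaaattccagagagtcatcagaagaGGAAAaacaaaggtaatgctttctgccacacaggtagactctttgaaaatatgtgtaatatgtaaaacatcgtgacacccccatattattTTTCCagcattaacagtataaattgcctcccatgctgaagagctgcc
Il21: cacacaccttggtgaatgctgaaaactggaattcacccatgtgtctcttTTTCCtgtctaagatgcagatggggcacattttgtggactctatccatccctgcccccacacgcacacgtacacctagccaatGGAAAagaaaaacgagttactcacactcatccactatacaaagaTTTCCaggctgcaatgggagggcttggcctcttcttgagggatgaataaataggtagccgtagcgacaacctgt
The core occurs in 2 places in the Il2 window, starting 137 and 47 bases before the start, and in 3 places in the Il21 window, starting 201, 118 and 74 bases before it.

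Ifng, the gene of IFN-γ (ENSMUSG00000055170.4, chr10:118441046-118445892, plus strand), was higher in SAS but uneven among SAS libraries. It had 31, 114, 107 and 19 counts in SAS replicates 1, 2, 3 and 6, against 0, 2, 1 and 4 counts in ANT replicates 1, 3, 4 and 5. SAS replicates 2 and 3 were the high pair and replicates 1 and 6 the low pair, a 6.55-fold span in CPM, and the lowest of them still exceeded all ANT libraries. Means were 2.31 ± 1.78 CPM in SAS, against 0.0619 ± 0.0589 CPM in ANT (edgeR log2 fold change 5.12, SE 0.85, adjusted p 0.000944). Pooled counts were 271 in SAS and 7 in ANT, a ratio of 36.0 (17.2 to 90.4), which was 27.3 (12.9 to 68.9) without SAS replicate 2. ANT replicate 5 held 4 of the 7 ANT counts, and the log2 fold change was 5.83 without it and 5.82 without ANT replicates 4 and 5. Summed CPM of 13 genes known to respond to cell handling, among them Fos and Dusp1, fell in the same pairs: 3066 and 3414 CPM in SAS replicates 2 and 3, and 1593 and 1725 CPM in SAS replicates 1 and 6. In ANT these genes summed to 2757 to 3873 CPM beside 0 to 4 Ifng counts, and their part in the Ifng values was not tested. Its promoter window, chr10:118440796-118441045 on the plus strand, is printed because it holds a single NFAT core, starting 172 bases before the start, and a TATAAA starting 30 bases before it (NFAT core in capitals).
Ifng: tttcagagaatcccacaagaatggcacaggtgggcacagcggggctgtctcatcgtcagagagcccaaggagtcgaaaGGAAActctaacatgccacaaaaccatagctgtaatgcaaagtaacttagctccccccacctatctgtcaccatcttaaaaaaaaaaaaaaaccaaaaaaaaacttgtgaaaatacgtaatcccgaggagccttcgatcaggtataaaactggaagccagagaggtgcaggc

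The lincRNA gene Ifngas1, annotated 56.1 kb from Ifng, was chosen after its values were seen. It had 238, 241, 153 and 150 counts in SAS replicates 1, 2, 3 and 6, against 14, 32, 6 and 7 counts in ANT replicates 1, 3, 4 and 5. SAS libraries ran from 4.82 to 8.45 CPM of Ifngas1 with replicates 1 and 2 highest, so the high and low pairs of Ifng did not recur there. Means were 6.45 ± 1.70 CPM in SAS, against 0.529 ± 0.448 CPM in ANT (edgeR log2 fold change 3.60, SE 0.48, adjusted p 0.000212).

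Il4 and Il10 gave no difference that these libraries could show. Il4 (ENSMUSG00000000869.12, chr11:53602982-53618669, minus strand) had a single count in all, in SAS replicate 3, and 0 in the other 3 SAS libraries and in the 4 ANT libraries. A total of 0 in ANT allows a level of up to 0.0266 CPM, that of 3 counts over the ANT group, and a level below it was not detectable at this depth. Il10 (ENSMUSG00000016529.5, chr1:131019845-131024974, plus strand) had 1, 9, 7 and 0 counts in SAS replicates 1, 2, 3 and 6, against 1, 0, 0 and 0 counts in ANT replicates 1, 3, 4 and 5. The groups overlapped, and SAS replicates 2 and 3, which were also high in Ifng, held nearly all of the Il10 counts. The exact two-sided permutation test gave p = 0.257 for Il10 and p = 1 for Il4. Pooled Il10 counts of 17 in SAS and 1 in ANT gave a ratio of 15.8 (counting interval 2.48 to 661), which leaves out the difference between libraries; without SAS replicate 2 the ratio was 9.72 (1.30 to 431). Without the low-count filter, edgeR gave Il10 a log2 fold change of 3.48 (adjusted p 0.100) and called neither gene.

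Xcl1, the gene of lymphotactin (ENSMUSG00000026573.7, chr1:164931644-164935527, minus strand), had the highest mean level per kilobase of the 9 in SAS and was not detected in ANT. It had 320, 192, 146 and 157 counts in SAS replicates 1, 2, 3 and 6, against 0 counts in each ANT library. Replicate 1 was the highest SAS library, and the SAS libraries lay within 1.93-fold of each other in CPM. The mean was 6.64 ± 2.22 CPM in SAS, and the 0 counts of the ANT group allow up to 0.0266 CPM, that of 3 counts over the group. Set against this floor, the 815 SAS counts were at least 253-fold higher. The edgeR adjusted p was 1.29e-05; its fitted log2 fold change of 10.61 depends on the prior count and is no bound. Gm20743, annotated on the other strand at chr1:164863133-164936775, spans the whole of Xcl1 and had 5 counts in SAS and 0 in ANT. The strand setting of the counting is not given. The Xcl1 promoter window, chr1:164935523-164935772 on the minus strand, is printed because the gene was counted in every SAS and no ANT library, and it holds a single NFAT core, in capitals, starting 100 bases before the start.
Xcl1: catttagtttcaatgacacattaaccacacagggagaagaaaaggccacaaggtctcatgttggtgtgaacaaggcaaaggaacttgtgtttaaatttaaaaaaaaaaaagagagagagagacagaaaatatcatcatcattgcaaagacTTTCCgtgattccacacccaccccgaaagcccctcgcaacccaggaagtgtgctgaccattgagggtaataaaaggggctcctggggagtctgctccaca

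Ccl3, Ccl4 and Ccl5 lie together on chromosome 11, with Ccl5 117 kb from Ccl3 and 132 kb from Ccl4, and the SAS libraries did not share their counts in the same way. Ccl4, which encodes MIP-1β (ENSMUSG00000018930.3, chr11:83662584-83664683, plus strand), had 94, 36, 42 and 29 counts in SAS replicates 1, 2, 3 and 6, against 1, 1, 0 and 4 counts in ANT replicates 1, 3, 4 and 5. Replicate 1 was the highest SAS library for Ccl4, as it was for Xcl1, Il2 and Il21. Means were 1.63 ± 0.852 CPM in SAS, against 0.0523 ± 0.0595 CPM in ANT (edgeR log2 fold change 4.84, SE 0.64, adjusted p 0.00022), and the pooled ratio was 31.2 (14.1 to 85.9). Without ANT replicate 5, which held 4 of the 6 ANT counts, the log2 fold change was 5.85.

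Ccl5, which encodes RANTES (ENSMUSG00000035042.2, chr11:83525778-83530518, minus strand), had 23, 324, 48 and 31 counts in SAS replicates 1, 2, 3 and 6, against 4, 2, 3 and 4 counts in ANT replicates 1, 3, 4 and 5. SAS replicate 2 held 76.1% of the SAS counts (95% exact binomial interval 71.7 to 80.0%) and stood 6.86-fold above the next SAS library in CPM. Means were 3.68 ± 5.14 CPM in SAS, against 0.114 ± 0.0306 CPM in ANT (edgeR log2 fold change 4.95, SE 1.01, adjusted p 0.00326). The pooled ratio of 30.5 (17.6 to 57.7) became 9.54 (5.33 to 18.5) without SAS replicate 2, where the edgeR log2 fold change was 3.23 (adjusted p 0.000406). The groups did not overlap with or without that library. The call was lost when only a pair of ANT libraries was kept, with edgeR adjusted p-values of 0.0771 without ANT replicates 4 and 5 and 0.0994 without ANT replicates 1 and 3.

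Ccl3, which encodes MIP-1α (ENSMUSG00000000982.5, chr11:83647844-83649355, minus strand, 13.2 kb from Ccl4), had 1, 17, 1 and 1 counts in SAS replicates 1, 2, 3 and 6, against 0 counts in each ANT library. Its SAS counts thus sat almost wholly in replicate 2, which held 85.0% of them (95% exact binomial interval 62.1 to 96.8%). The permutation test gave p = 0.0286, the smallest possible, because every SAS library had a count and no ANT library did. The 20 SAS counts were at least 6.20-fold above a floor of 3 counts over the ANT group. Without SAS replicate 2 only 3 counts were left, for which no fold can be given. Without the low-count filter, edgeR did not call Ccl3 with all libraries (adjusted p 0.0530) or without SAS replicate 2 (adjusted p 0.197), but did without SAS replicate 1 (adjusted p 0.0476).

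**Figure D2:**
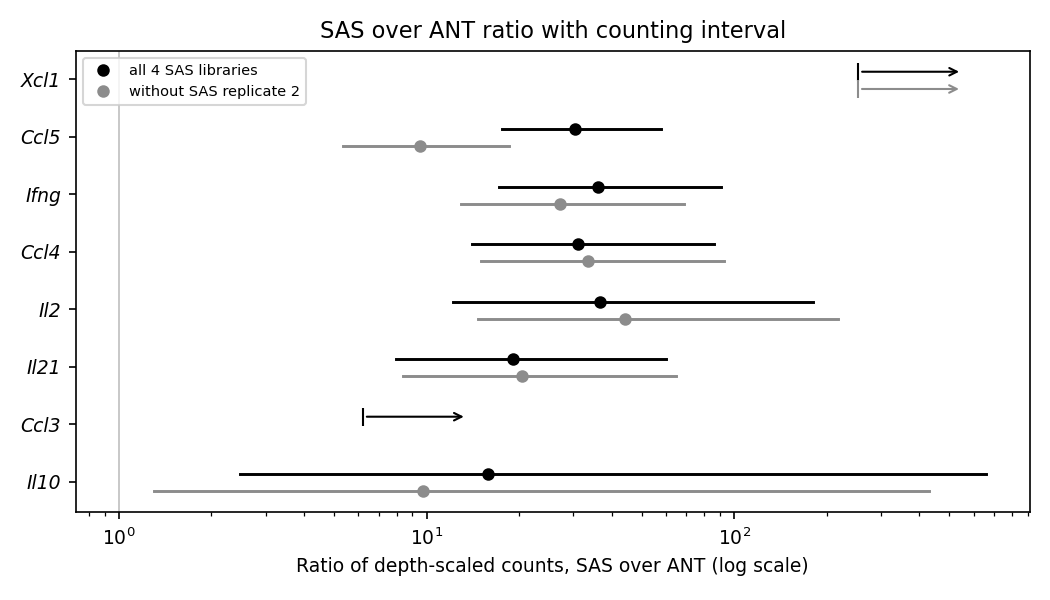
Ratio of depth-scaled pooled counts, SAS over ANT, on a log axis, for 8 of the 9 genes, with 95% counting intervals as bars. Arrows mark lower bounds against a floor of 3 counts, black symbols all 4 SAS libraries and grey symbols the 3 left without SAS replicate 2, where the Ccl5 ratio is 9.54 in place of 30.5 and Ccl3 has no ratio.

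Levels of different genes were compared per kilobase of exon. In SAS the order of mean levels was Xcl1 (12.7 ± 4.24 CPM per kb), Ccl5 (3.83 ± 5.35), Ccl4 (2.46 ± 1.29), Ifng (1.78 ± 1.37), Il2 (0.836 ± 0.422), Ccl3 (0.226 ± 0.368), Il21 (0.160 ± 0.0293), Il10 (0.112 ± 0.119) and Il4 (0.00703 ± 0.0141). The chemokines Xcl1, Ccl5 and Ccl4 headed this list. The ranges of all neighbours in it overlapped, so no step of the order exceeded the spread between libraries, although Xcl1 lay above Ccl5 within each of the 4 SAS libraries. The Ccl5 and Ccl3 places rest on SAS replicate 2.

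The 4 SAS libraries did not hold the genes in fixed proportion. SAS replicate 2, with 23.5% of the SAS sequencing depth, held 85.0% of Ccl3, 76.1% of Ccl5, 52.9% of Il10 and 42.1% of Ifng counts, but 7.63% of Il2 counts (95% exact binomial interval 3.55 to 14.0%). SAS replicate 1 held 46.8% of Ccl4, 39.3% of Xcl1 and 39.0% of Il2 counts, but 11.4% of Ifng counts. Il21 was spread over the 4 libraries at 18.4 to 33.0% each. Thus Ccl5 and Ccl3 on one side and Il2 on the other had opposite extremes in the same library. In SAS replicate 2 the summed markers of plasma cells, macrophages and monocytes (above), neutrophils (1.86 CPM, with 0.138 to 0.822 CPM in SAS replicates 1, 3 and 6) and erythroid cells and platelets (10.4 CPM, with 4.18 to 4.63 CPM in those) were the highest of the SAS group. So were those of B cells (3.44 CPM, with 1.45 to 2.73 CPM in SAS replicates 1, 3 and 6). Dendritic cell markers, at 1.26 CPM with 0.739 to 0.932 CPM in those, were highest there as well. The part of all these markers in the Ccl3, Ccl5, Il10 and Ifng values of SAS replicate 2 was not tested.

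**Figure D3:**
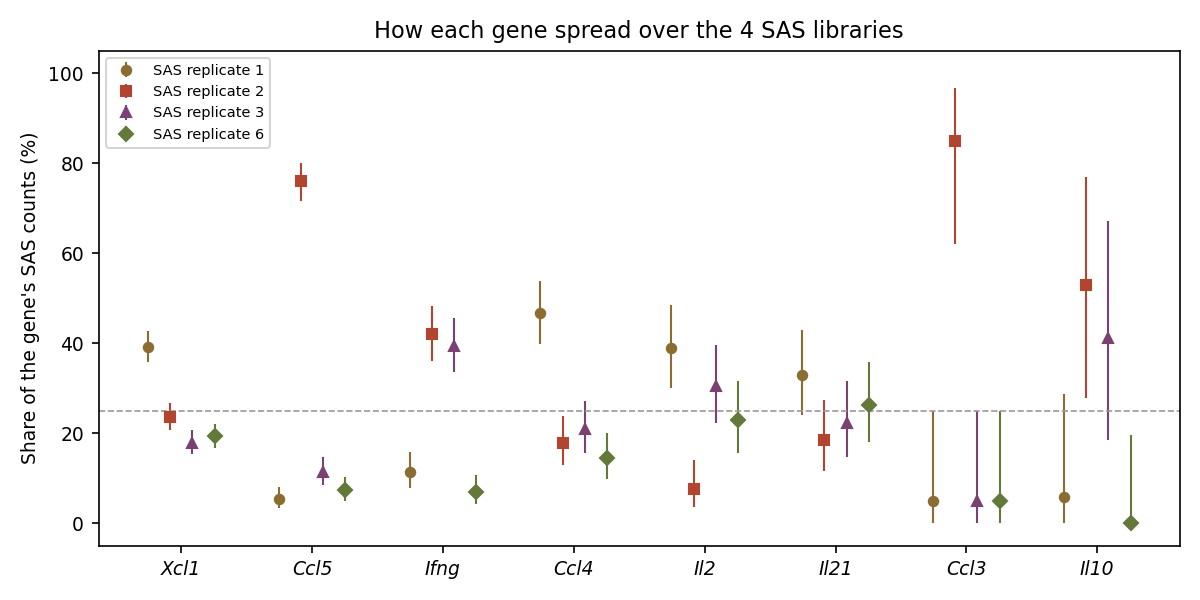
Share of each gene's SAS counts found in each SAS library (vertical axis in percent, 1 symbol per replicate, bars are 95% exact binomial intervals), for the 8 genes with more than 1 SAS count. The dashed line marks an equal share; SAS replicate 2 holds 85.0% of Ccl3 and 76.1% of Ccl5 counts but 7.63% of Il2 counts.

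Patterns over the 8 libraries were compared after each clone's mean log2 CPM had been subtracted, as a description without a test, for the 6 genes with at least 100 counts. Among these, the closest pairs were Ifng with Ccl5 (Pearson r 0.65), Xcl1 with Ccl4 (r 0.61) and Il2 with Ccl4 (r 0.61), while Il2 and Ccl5 ran opposite (r −0.80), as did Ifng and Il21 (r −0.54). Il2 and Il21 had an r of 0.0092. In ANT these genes had 0 to 4 counts a library. Of 11176 genes searched, the most similar to Il2 were Cnih4 (r 0.957) and Slc25a36 (r 0.946). Those most similar to Il21 included Nck1 (r 0.972); the most similar to Ifng were Mrs2 (r 0.985) and Gm28512 (r 0.978), and to Xcl1 Usp18 (r 0.968) and Gcnt1 (r 0.934). Closest to Ccl4 were Amer1 (r 0.967) and Gprc5b (r 0.949), and to Ccl5 Pam (r 0.989) and Bsn (r 0.987). These genes are named as the highest values of a search, with no test.

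Receptor genes for the 9 products split in both directions. Of 14 listed, 10 were tested: 4 were higher in SAS, 3 were higher in ANT and 3 did not pass. The median log2 fold change was −0.08 beside −0.0032 over all genes tested, of which 19.8% were higher in SAS and 17.7% lower. Il2rb, the signalling β chain shared by the IL-2 and IL-15 receptors, stood at 281 ± 23.8 CPM in SAS, against 3.12 ± 1.05 CPM in ANT (edgeR log2 fold change 6.49, SE 0.24, adjusted p 4.09e-08). For Il2ra, the chain that gives the IL-2 receptor its high affinity, the level was 52.6 ± 11.8 CPM in SAS, against 5.80 ± 0.988 CPM in ANT (log2 fold change 3.18), and for Il10ra, the ligand-binding chain of the IL-10 receptor, 96.9 ± 15.9 CPM in SAS, against 12.5 ± 4.05 CPM in ANT (log2 fold change 2.96). Both chains of the IFN-γ receptor were instead lower in SAS: Ifngr1 was at 69.7 ± 10.8 CPM in SAS, against 201 ± 52.3 CPM in ANT (log2 fold change −1.53), and Ifngr2 at 49.6 ± 7.93 CPM in SAS, against 82.4 ± 6.85 CPM in ANT (log2 fold change −0.73). Il4ra was also lower in SAS, at 212 ± 34.8 CPM against 406 ± 42.0 CPM in ANT (log2 fold change −0.94). Il21r was not called, at 302 ± 30.5 CPM in SAS, against 304 ± 50.9 CPM in ANT (log2 fold change −0.01, SE 0.13), and neither were Il2rg and Il10rb. Xcr1, the XCL1 receptor, and Ccr1, a receptor of CCL3 and CCL5, had 0 counts in all 8 libraries.

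**Figure D4:**
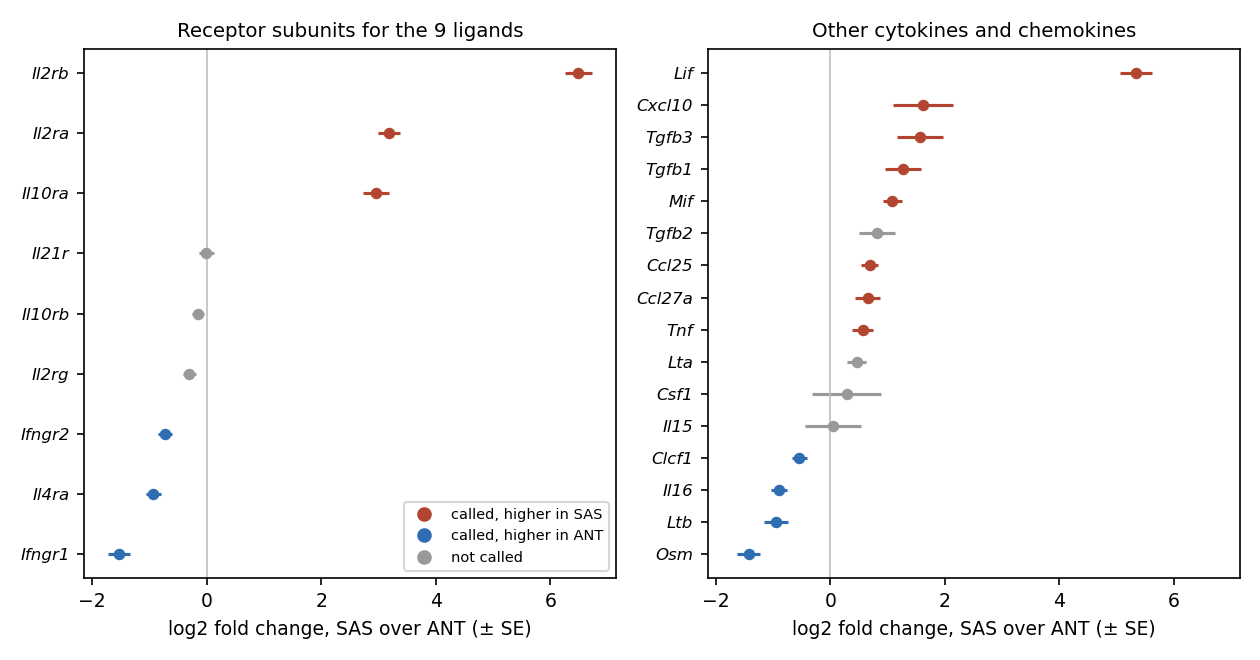
Log2 fold change, SAS over ANT, with its SE as bars, of 9 tested receptor genes (left) and the 16 other cytokine and chemokine genes that were tested (right). Red marks genes called higher in SAS, blue those called lower and grey those not called; Il2rb at 6.49 and Lif at 5.34 lie farthest right, and Ifngr1 at −1.53 farthest left.

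Most other cytokine genes were too scarce to test, and those tested moved in both directions. Of 42 listed, 9 had no count in any library and 13 were tested. Among the 13, 5 were higher in SAS, 4 were higher in ANT and 4 did not pass (median log2 fold change 0.46). Over all genes tested, 19.8% were higher in SAS and 17.7% lower. Lif, a cytokine of the IL-6 family, had the largest difference of these 13, at 12.7 ± 2.83 CPM in SAS, against 0.309 ± 0.116 CPM in ANT (edgeR log2 fold change 5.34, SE 0.29, adjusted p 5.75e-07). Mif, Tgfb1, Tgfb3 and Tnf were also higher in SAS, with log2 fold changes of 1.08, 1.26, 1.56 and 0.57. Osm, Il16, Ltb and Clcf1 were lower in SAS, with log2 fold changes of −1.43, −0.90, −0.95 and −0.54. The Tgfb1 call was lost without ANT replicates 1 and 3 (edgeR adjusted p 0.0732) and the Tgfb3 call without ANT replicates 4 and 5 (adjusted p 0.0555). Il17a, Il6 and Il9 were among the genes with no count, and Il13, beside Il4 on chromosome 11, had 0 counts in SAS and 3 in ANT. Of 33 other chemokines, 15 had no count and 3 were tested, all higher in SAS by smaller steps: Ccl25 (log2 fold change 0.68), Cxcl10 (1.62) and Ccl27a (0.65). The Ccl27a call was lost when any 1 library other than SAS replicate 3 was left out (edgeR adjusted p 0.0509 to 0.109). The Cxcl10 call was lost when SAS replicate 3 or 6 or ANT replicate 1, 3 or 5 was left out (edgeR adjusted p 0.0515 to 0.106).

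Of 50 transcription factor genes known to act on these loci in T cells, 49 were tested: 28 were higher in SAS, 4 were higher in ANT and 17 did not pass. Their median log2 fold change was 1.15, beside −0.0032 over all genes tested, of which 19.8% were higher in SAS and 17.7% lower. The list was written with earlier results of these data known, so its count is no independent evidence. Eomes, a T-box activator of Ifng, was at 155 ± 18.1 CPM in SAS, against 0.679 ± 0.160 CPM in ANT (edgeR log2 fold change 7.82, SE 0.19, adjusted p 4.03e-09). The orphan receptor genes Nr4a3 and Nr4a1, which TCR signals induce, stood at 736 ± 127 and 1316 ± 72.3 CPM in SAS, against 14.5 ± 2.29 and 103 ± 16.2 CPM in ANT (log2 fold changes 5.66 and 3.67). Ikzf2, which encodes Helios, was at 976 ± 93.0 CPM in SAS, against 7.24 ± 1.65 CPM in ANT (log2 fold change 7.07). Of the factors lower in SAS, Prdm1, which encodes Blimp-1, a repressor of Il2, was at 0.994 ± 0.391 CPM in SAS, against 10.5 ± 2.12 CPM in ANT (log2 fold change −3.40). Jun and Junb, subunits of AP-1, were lower in SAS as well (log2 fold changes −1.70 and −1.47). The Junb call was lost without SAS replicate 1 or 6 or ANT replicate 4 or 5 (edgeR adjusted p 0.0520 to 0.0753). Jun lost its call without ANT replicates 4 and 5 (edgeR adjusted p 0.103). Both fell in the SAS pairs of the summed handling-response genes. Jun was at 174 and 244 CPM in SAS replicates 2 and 3, and 71.5 and 86.5 CPM in replicates 1 and 6. Junb was at 392 and 540 CPM in SAS replicates 2 and 3, and 169 and 180 CPM in replicates 1 and 6. The part of handling in these values was not tested. Tbx21, the T-box factor T-bet of type 1 helper cells, and Bcl6, the Tfh factor, were picked out after their values were seen: Tbx21 was at 8.08 ± 3.15 CPM in SAS, against 0.0362 ± 0.0520 CPM in ANT, and Bcl6 at 118 ± 7.01 CPM in SAS, against 24.5 ± 1.08 CPM in ANT (log2 fold changes 7.67 and 2.27). Gata3, the type 2 factor that acts on Il4, was not called, at 61.4 ± 14.0 CPM in SAS, against 59.5 ± 21.5 CPM in ANT.

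Of the 9 genes, 6 had an entry in the promoter table: Il2, Il4, Il21, Ifng, Xcl1 and Ccl3. At least 1 NFAT core (GGAAA on either strand) was found in the 250 bases before the start of each of the 6, in the case of Il4 in the farther of its 2 windows; 55.6% of the 32851 windows in the table hold one. The κB-like GGGNNNNNCC was found in Il2 and Il21 (45.8% of windows) and the T-box core AGGTGT in Il21 only of the 6, in 2 places (11.8% of windows). TATAAA was found in Il2 and Ifng (12.4% of windows). The AP-1 motif TGANTCA (6.75% of windows), the Nr4a motif AAAGGTCA (1.34%), the Egr motif GCGNGGGCG (4.70%) and the cyclic AMP element TGACGTCA (1.55%) were found in none of the 6. Both strands were searched for each motif, and a match describes letters in these windows only.

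The mRNAs differed in AU-rich elements, whose core pentamer is ATTTA in DNA letters. In the longest annotated 3′ UTR, 8 of the 9 genes held at least 1 ATTTA, beside 65.0% of 20981 genes with an annotated 3′ UTR. Il2 had 7 in 581 bases and Ccl3 5 in 409 bases, or 12.0 and 12.2 per kb, densities reached by 0.734% and 0.682% of all genes. Ifng had 6 in 631 bases (9.51 per kb), Il10 6 in 706 (8.50 per kb), Xcl1 1 in 141 (7.09 per kb), Ccl4 2 in 302 (6.62 per kb) and Il4 2 in 104 (19.2 per kb). Il21 had 9 in a longer 3′ UTR of 2578 bases (3.49 per kb, reached by 16.5% of genes), and Ccl5 had none in 199 bases. The nonamer TTATTTATT occurred in Il2 and Il21 (7.60% of genes). Stretches of 30 bases are printed to show the contrast between clustered pentamers in Il2 and Ifng, a run in Ccl3 and a lone pentamer in Ccl4 (GENCODE M21 transcripts, 5′ to 3′, ATTTA in capitals). They lie at chr3:37121040-37121069 and chr11:83648085-83648114 on the minus strand (Il2, Ccl3), and at chr10:118445330-118445359 and chr11:83664473-83664502 on the plus strand (Ifng, Ccl4).
Il2: ctATTTATTTAaatATTTAactttaATTTA
Ifng: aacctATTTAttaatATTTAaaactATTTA
Ccl3: gactcttcacttgaaattttATTTAATTTA
Ccl4: ttcagatttcctgcccctcttcttaATTTA

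**Figure D5:**
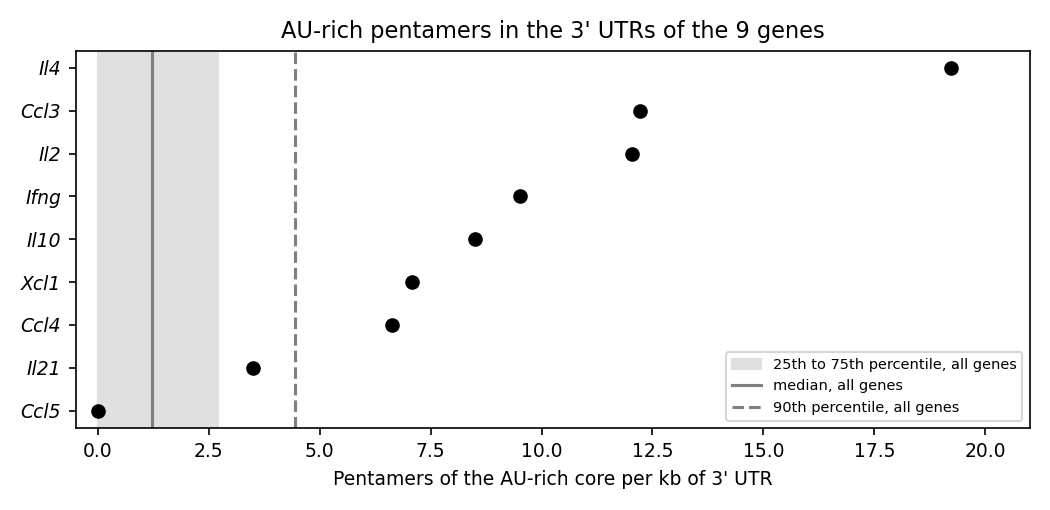
AU-rich pentamers per kilobase of the longest annotated 3′ UTR (horizontal axis) for each of the 9 genes. The grey band, solid line and dashed line give the 25th to 75th percentile, the median (1.23 per kb) and the 90th percentile (4.44 per kb) of all genes; 7 of the 9 genes lie above the 90th percentile, and Il21 at 3.49 and Ccl5 at 0 lie below it.

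Genes for proteins that act on such mRNAs were called in both directions. Of 22 listed, 21 were tested: 6 were higher in SAS, 1 was higher in ANT and 14 did not pass, with a median log2 fold change of 0.25. Beside these counts stand 19.8% of all genes tested that were higher in SAS and 17.7% that were lower. Zfp36, which encodes tristetraprolin, a factor that binds AU-rich elements and speeds decay, was at 341 ± 72.5 CPM in SAS, against 452 ± 65.4 CPM in ANT and did not pass (log2 fold change −0.41, edgeR adjusted p 0.0777). Its relative Zfp36l1 was higher in SAS, at 696 ± 116 CPM against 322 ± 138 CPM in ANT (log2 fold change 1.11, edgeR adjusted p 0.00896), and Zfp36l2 did not pass. Dcp2, a decapping enzyme, Zc3h12d, of the Regnase family of RNA-degrading enzymes, and the RNA-binding protein genes Ncl, Tia1 and Ybx1 made up the rest of those higher in SAS, with log2 fold changes of 0.62, 1.37, 0.78, 0.83 and 0.98. Arid5a, which stabilises cytokine mRNAs, was lower in SAS, at 117 ± 13.7 CPM against 196 ± 9.43 CPM in ANT (log2 fold change −0.74).

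Genes close to the 9 on the chromosome were called in both directions. Of 25 protein-coding genes within 100 kb of a member of the set, 9 were tested, of which 2 were higher in SAS, 2 were higher in ANT and 5 did not pass, where 19.8% of all genes tested were higher in SAS and 17.7% lower. Mapkapk2, a stress kinase gene 28.7 kb from Il10, was at 167 ± 17.2 CPM in SAS, against 56.1 ± 12.5 CPM in ANT (edgeR log2 fold change 1.58, SE 0.16, adjusted p 3.16e-05), and Bbs12, 79.9 kb from Il21, at 8.62 ± 2.79 CPM in SAS, against 4.07 ± 0.618 CPM in ANT (log2 fold change 1.08). Lower in SAS were 4932438A13Rik, 67.5 kb from Il2, at 763 ± 76.1 CPM against 1201 ± 260 CPM in ANT (log2 fold change −0.65), and Kif3a, 1.01 kb from Il4, at 5.16 ± 0.399 CPM against 7.88 ± 1.28 CPM in ANT (log2 fold change −0.61). The 4932438A13Rik call was lost without ANT replicates 1 and 3 (edgeR adjusted p 0.0582), and the Kif3a call without ANT replicates 4 and 5 (adjusted p 0.0680). Of the 16 neighbours too scarce to test, Heatr9 and Cetn4 were picked out after their counts were seen. Heatr9, 3.60 kb from Ccl5, had 5, 11, 3 and 8 counts in SAS replicates 1, 2, 3 and 6, against 0, 0, 0 and 2 counts in ANT replicates 1, 3, 4 and 5, a pooled ratio of 12.6 (counting interval 3.15 to 109). Cetn4, 75.1 kb from Il21, had 11, 0, 20 and 7 counts in SAS, against 0, 0, 0 and 1 in ANT, a pooled ratio of 35.3 (5.97 to 1432). The groups did not overlap for Heatr9 and overlapped for Cetn4 through SAS replicate 2. Taf15, 19.0 kb from Ccl5, and Heatr6, 89.0 kb from Ccl4, were well covered, with 22972 and 6759 counts in SAS and 20915 and 5922 in ANT, and did not pass (log2 fold changes 0.04 and 0.09).

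Other lymphocytes also make IFN-γ, XCL1 and CCL5, so their markers were measured beside these values. Natural killer cell markers summed to 26.8 to 49.4 CPM in SAS and 47.6 to 55.7 CPM in ANT, and the defining genes Ncr1, Klra4, Klra8, Klra9 and Klre1 had 0 counts in all 8 libraries. Within that list of 11, Nkg7 (35.7 ± 9.36 CPM in SAS, 0.619 ± 0.405 CPM in ANT) and Klrb1c (0.792 ± 0.193 CPM in SAS, 0.0345 ± 0.0488 CPM in ANT) were higher in SAS, whereas Prf1, Klrd1 and Gzma were lower in SAS (log2 fold changes −3.28, −4.81 and −2.61). CD8 T cell markers summed to 1.99 to 4.49 CPM in SAS and 14.1 to 66.8 CPM in ANT. Of the 2 genes summed, Cd8b1 made up most of the ANT value, at 33.6 ± 21.1 CPM, against 2.42 ± 0.725 CPM in SAS. It was lower in SAS (log2 fold change −3.80). Cd8a was at 0.916 ± 0.531 CPM in SAS, against 2.56 ± 1.91 CPM in ANT. Its groups overlapped, and it was not called (edgeR adjusted p 0.0919). Of 7 markers of innate-like T cells, 4 were tested and 3, Tcrg-C2, Tcrg-C4 and Sox13, were higher in SAS, each below 1 CPM there (0.968, 0.697 and 0.664 CPM). The log2 fold changes of these 3 depended on the ANT libraries kept: they were 2.90, 4.12 and 2.17 without ANT replicates 4 and 5, 5.47, 7.37 and 4.08 without ANT replicates 1 and 3, and 5.10, 7.36 and 3.67 without ANT replicate 1 alone. Klrb1c, at 4.33 with all libraries, was at 5.62 without ANT replicate 1, and Nkg7, at 5.84, was at 6.96 without ANT replicates 1 and 3. The 7 innate-like T cell markers summed to 360 to 438 CPM in SAS and 415 to 551 CPM in ANT, nearly all of it Trdc. Among them Zbtb16, the gene of the NKT cell factor PLZF, had 25 counts in SAS and 3 in ANT. Macrophage and monocyte markers summed to 5.31 to 11.1 CPM in SAS and 5.11 to 7.03 CPM in ANT. Of these 11 markers, 4 were tested: 1 was higher in SAS, 1 was lower and 2 were not called. Itgam was higher in SAS, at 1.42 ± 0.225 CPM against 0.365 ± 0.203 CPM in ANT (log2 fold change 1.95). Cd68 was lower in SAS, at 2.60 ± 0.424 CPM against 4.32 ± 0.614 CPM in ANT (log2 fold change −0.73). The Cd68 call was lost without ANT replicates 4 and 5 (edgeR adjusted p 0.0997). Dendritic cell markers summed to 0.739 to 1.26 CPM in SAS and 0.216 to 0.515 CPM in ANT. B cell markers summed to 1.45 to 3.44 CPM in SAS and 1.41 to 3.45 CPM in ANT, plasma cell markers to 3.82 to 15.1 CPM in SAS and 3.52 to 9.41 CPM in ANT, and neutrophil markers to 0.138 to 1.86 CPM in SAS and 0 to 1.07 CPM in ANT. Basophil and mast cell markers summed to 0.457 to 0.707 CPM in SAS and 0.404 to 0.828 CPM in ANT, and erythroid and platelet markers to 4.18 to 10.4 CPM in SAS and 5.31 to 18.8 CPM in ANT. Of the 13 handling-response genes, 11 were tested, of which 1 was higher in SAS, 5 were lower in SAS and 5 were not called. Over all genes tested, 19.8% were higher in SAS and 17.7% lower. Of 16 library measures compared, 3 had groups that did not overlap. They were the summed CD8 markers, the summed dendritic cell markers and the number of genes with a count. That number was 17846 to 18340 in SAS and 16648 to 17224 in ANT. Each of the 3 had an exact permutation p of 0.0286, the smallest that 4 against 4 can give, and 0.152 after adjustment over the 16, so the tests could not settle whether they differed. The part of the markers that moved with SAS in the 9 genes' values was not tested.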

How the data were processed

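RNA-seq counts per gene were analysed for 4 SAS and 4 ANT libraries of sorted CD4+ T cells. The authors deposited 1 table of raw counts for 39056 Ensembl genes; the submitters' processing notes name STAR, mm10 and featureCounts, and libraries were strand-specific TruSeq mRNA libraries, per the labels' protocols. Versions, annotation release, strand setting and treatment of multi-mapped reads are not given in the sources used here, so counts of overlapping genes are uncertain. IDs were matched without version suffix to GENCODE M21 (38872 matched, 184 did not). Groups and replicate numbers came from the titles and treatment labels.

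The 12619 genes past the default filter (filterByExpr, minimum count 10) entered an edgeR 4.0.16 fit run in R 4.3.3 (TMM scaling, robust quasi-likelihood test, all 8 libraries, no covariates), adjusted by the Benjamini-Hochberg method over all of them with calls made where the adjusted p was under 0.05. A positive log2 fold change means higher in SAS; levels are CPM of the TMM-scaled library size. The 4 genes below the filter were compared by an exact two-sided permutation test and by pooled counts with exact 95% Poisson or conditional binomial intervals. The fitting code was tested on simulated data. Alternatives used DESeq2 1.42.0, limma-voom 3.58.1, other scalings, filters and thresholds, and fits without libraries.

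The 9 genes and the 17 other gene lists were chosen with earlier results of these data known, so they are no independent evidence. Beyond the 9, the genes named are the 4 of each list with the smallest p in each direction among those called, the 3 most abundant of each list of other cells, tested protein-coding neighbours within 100 kb, and the 2 genes most correlated with each of the 9 that had at least 100 counts. Genes outside that rule are given as exceptions within a list or as chosen after their values were seen. Some genes meeting it are not reported here. Promoter sequences are from RefSeq (GRCm38.p6), and 3′ UTRs from GENCODE M21.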

Additional observations from a re-analysis of the deposited data

Results flagged for a closer look

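Among 47 groups of 4 libraries examined, 6 had 1 library that stood apart from the other 3. Chance flags about 1 in 20 groups where values are normally distributed, which does not hold for counts near 0. The groups also share libraries, so the 6 cannot be weighed against that rate. SAS replicate 2 was the library that stood apart in 4 of the 6. Its Ccl5 level was 11.4 CPM, where SAS replicates 1, 3 and 6 had 0.700 to 1.66 CPM, and its Ccl3 level was 0.596 CPM, against 0.0305 to 0.0345 CPM. Summed plasma cell markers in SAS replicate 2 were 15.1 CPM, against 3.82 to 5.51 CPM, and summed erythroid and platelet markers 10.4 CPM, against 4.18 to 4.63 CPM. The other 2 were single counts, which the rule always flags when the other libraries have 0. They were Il4 in SAS replicate 3, at 0.0345 CPM with 0 in the other SAS libraries, and Il10 in ANT replicate 1, at 0.0345 CPM with 0 in the other ANT libraries.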

How the results depend on the processing

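Over all genes, the count called was 4725 and stayed within 1.5 times of that under most alternatives, including 5173 by DESeq2, 4682 by limma-voom and 3964 to 4700 without 1 library at a time; it was 3044 at an adjusted p under 0.01 and 1836 when tested against a 1.5-fold change, both stricter by construction. Of the 9 genes, 5 were called under every scaling and tool tried, 5 to 6 without 1 library at a time, 6 (Il2 added) without a low-count filter, and 1 (Xcl1) when at least 1 CPM was asked of 4 libraries, a filter that removes the others. No direction reversed. Leaving out 1 library gave log2 fold changes of 4.59 to 5.89 for Il2 in the fits it entered, 3.72 to 5.70 for Il21, 4.71 to 5.83 for Ifng, 10.34 to 10.72 for Xcl1, 4.41 to 5.85 for Ccl4 and 3.23 to 5.29 for Ccl5. The values without SAS replicate 2 were the lowest for Ccl5 and, without a filter, for Il10 (2.80) and Ccl3 (3.10); without ANT replicate 1, Il10 was at 5.11. Limma-voom gave 3.85 for Ccl5 and 8.51 for Xcl1, and DESeq2 9.99 for Xcl1; the cause was not tested. A fit with a replicate block takes the clone difference from replicates 1 and 3 alone, the only numbers that both clones have. SAS replicates 2 and 6 and ANT replicates 4 and 5 do not enter that estimate. The fit called 5798 genes and the same 5 of the 9. Its log2 fold changes were 3.34 for Il21, 5.87 for Ifng, 5.76 for Ccl4 and 3.33 for Ccl5. Little was left in it to estimate the spread, so its calls are no check over all 8 libraries. The deviations of same-numbered libraries correlated at 0.356 for replicate 1 and −0.114 for replicate 3, where other pairs ran from −0.406 to 0.364. The labels do not say what a shared number means. So few correlations cannot show whether same-numbered libraries share a litter or a day. Depth limits Il4, Il10 and Ccl3, whose totals were 1, 17 and 20 counts in SAS and 0, 1 and 0 in ANT. With 1 library left out, the exact test of genes below the filter cannot go under 0.0571.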
